A study of Rattus norvegicus with 3 samples.

Results

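The genes described here are 10 members of the tumour necrosis factor (TNF) system: the ligands Tnf, Tnfsf9 and Tnfsf15, the receptors Tnfrsf1a, Tnfrsf1b, Cd40 and Fas, the adaptors Traf1 and Traf2, and the survival effector Birc3. They were taken by gene symbol from the platform annotation, with older aliases accepted. Of these 10 genes, 9 had probes among the 15924 named genes of the table, 11 probes in all, and Traf1 was not analysed here. Cd40 and Fas had 2 probes each and the other 7 genes 1 probe each.

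All RNA came from NR8383, a rat cell line derived from alveolar macrophages and long established, grown in multiwell plates in serum-containing medium. One culture condition was exposed for 24 h to the nanotubes called CNT-1 and another to CNT-2, both impurity-free single-wall carbon nanotubes at 0.1 mg/mL, dissolved with 1 mg/mL bovine serum albumin. The third was the control, which one label calls untreated and another an albumin solvent control, so the presence of albumin in it was not settled. RNA was hybridised to Agilent 1-colour arrays, and the table held 1 column per group, so the 3 samples were 1 per group. The labels of all groups carry the same replicate number, 4, and the sources used here do not settle how many arrays stand behind a column.

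TNF ligands are membrane or shed proteins that bind as trimers to receptors of the matching family. Receptors such as Tnfrsf1a and Fas carry a cytoplasmic death domain, whereas Tnfrsf1b and Cd40 bind TRAF adaptors directly. TRAF2 brings the ubiquitin ligases encoded by Birc2 and Birc3 to the receptor complex, which favours NF-kappaB signalling and survival over caspase activation. Macrophages are a main source of TNF, and Tnf, Traf1 and Birc3 are well-known NF-kappaB target genes.

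The deposited values were read as log2 units relative to an unstated baseline, with a higher value taken as more RNA. Differences between columns are given in the same units, and a difference of 1 unit is 2-fold only if the log base is indeed 2. No test between conditions was possible with 1 sample per group, and no p-value was calculated. The technical scale was the SD between probes of the same gene, whose median over 3910 genes with several probes was 0.08 in the contrast of CNT-1 with control, 0.19 in that of CNT-2 with control and 0.17 between the exposures. It does not measure the spread between cultures. The arrays were of bulk RNA, so fewer cells of a kind and less RNA per cell cannot be told apart.

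In the control column the 9 genes lay between -0.03 and 0.05. Such values were usual there, since 72.59% of all gene probes were within 0.1 of 0 in that column. None of the probes of the 9 genes was background-like, meaning within 0.02 of the negative-control probe, which was at 0.16 in that column. Of all gene probes 14.5% were. The class compares centred values, which hold no expression levels, so it does not show expression. In the CNT-1 column the genes ranged from -0.19 to 1.11 with a median of 0.43, and in the CNT-2 column from -0.03 to 3.25 with a median of 1.60. The 3 ligands and Birc3 were above control in both exposures, Traf2 and Fas stayed within 0.2 units of it in both, and Tnfrsf1b was far above control in CNT-2 and slightly below it in CNT-1.

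**Figure D1:**
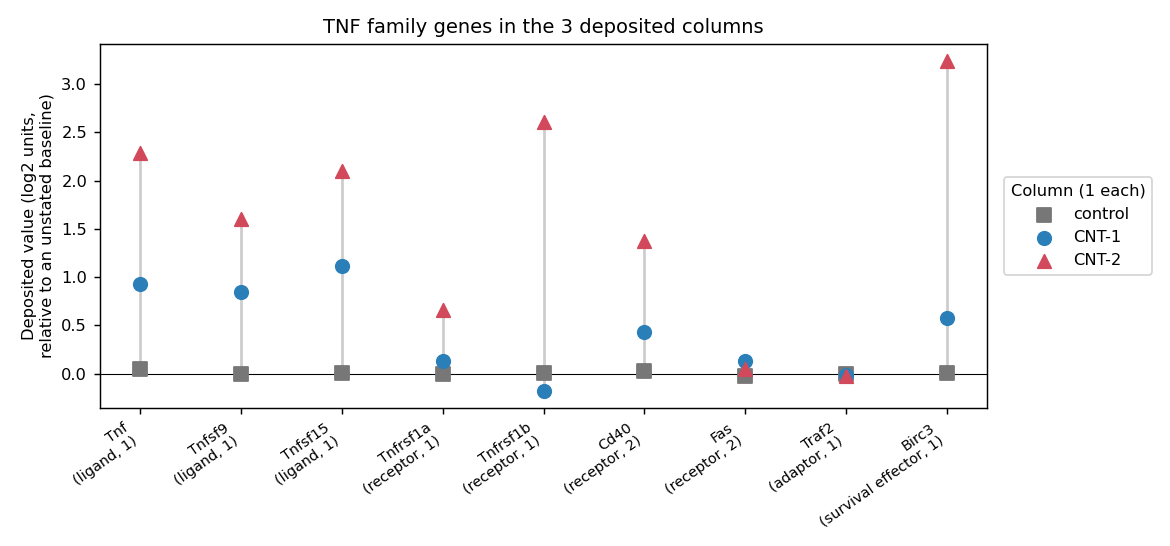
Deposited value (log2 units, relative to an unstated baseline) of each measured gene in the control (square), CNT-1 (circle) and CNT-2 (triangle) columns, 1 value per column, with the role and number of probes under each name; values of genes with 2 probes are means. The control values lie between -0.03 and 0.05, and Birc3 has the highest CNT-2 value at 3.25.

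Against control, 1 of the 9 genes was at least 1 unit higher in CNT-1, Tnfsf15, and none was 1 unit lower, while 1.16% of all named genes were that much higher and 2.15% that much lower. The median difference of the 9 genes was 0.41, beside -0.04 over all named genes. In CNT-2 6 of the 9 genes were at least 1 unit higher than control, namely Tnf, Tnfsf9, Tnfsf15, Tnfrsf1b, Cd40 and Birc3, and none was lower. The corresponding shares of all named genes were 10.1% higher and 6.56% lower, and the medians were 1.60 for the 9 genes and 0.04 for all. The higher share over all genes depended on the scaling, becoming 6.22% higher and 11.5% lower with each column centred on its 75th percentile, and 7.15% and 9.83% with centring on spike-in probes. The same 6 of the 9 genes were higher under both centrings and none was lower.

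**Figure D2:**
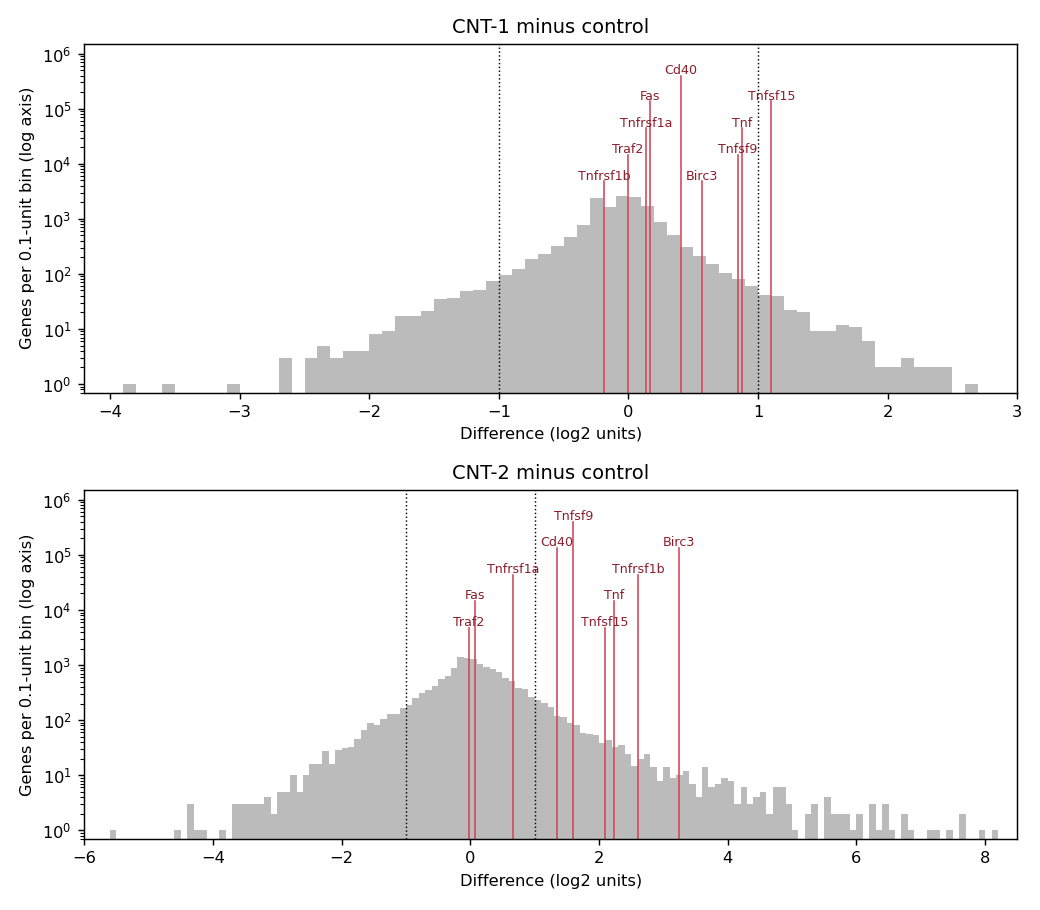
Number of named genes per 0.1-unit bin of the difference (log2 units; log vertical axis) for CNT-1 minus control and CNT-2 minus control, with a red line at the difference of each of the 9 genes and dotted lines at 1 unit either way. Only Tnfsf15 lies past 1 unit in CNT-1, and 6 genes do in CNT-2.

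Tnf encodes the founding cytokine of the family, released by activated macrophages. Its value was 0.05 in control, 0.93 in CNT-1 and 2.29 in CNT-2. The columns were thus in the order control, CNT-1, CNT-2, with each step larger than the median spread between probes. The difference from control was 0.88 in CNT-1 (1.84-fold), where 1.66% of all named genes were as high or higher, and 2.24 in CNT-2 (4.71-fold), where 2.12% were. Quantile normalization, which gives all 3 columns the same distribution, changed these differences to 1.09 and 1.20.

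Tnfsf15 encodes a ligand that costimulates T cells through Tnfrsf25. It was at 0.01 in control, 1.11 in CNT-1 and 2.10 in CNT-2. Its difference of 1.10 (2.15-fold) was the highest of the 9 genes in CNT-1, and only 142 of all named genes were as high or higher there. In CNT-2 the difference was 2.09 (4.25-fold), shared or exceeded by 397 genes. With quantile normalization the differences were 1.48 and 1.21, so the order of the exposures turned.

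Tnfsf9 encodes the ligand of the costimulatory receptor Tnfrsf9. It was at -0.003 in control, 0.84 in CNT-1 and 1.60 in CNT-2, again in that order. Its differences from control were 0.84 (1.79-fold) and 1.60 (3.03-fold), or 1.17 and 0.97 with quantile normalization, where the order again turned. The receptors of Tnfsf9 and Tnfsf15 did not show differences of this size. Tnfrsf9 was at 0.19 in CNT-1 minus control and 0.30 in CNT-2 minus control, and Tnfrsf25 at -0.26 and 0.19.

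Tnf lies between the lymphotoxin genes Lta and Ltb in the RefSeq gene order of assembly GRCr8. Neither neighbour was higher. Lta, background-like in the control, was at -0.25 in CNT-1 minus control and -0.20 in CNT-2 minus control, and Ltb at -0.42 and -0.19.

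The sequences before the gene starts are shown for members that were higher in CNT-2 and for 1 that was not. They are the 250 bases before the start in RefSeq's promoter table for GRCr8, which matched 7 of the 10 genes and not Tnfsf9, Cd40 or Birc3. Capitals mark matches, on either strand, to the core of the TATA box, searched as TATAAA, to the GC box bound by Sp1 factors, searched as GGGCGG, to the AP-1 site bound by Fos and Jun factors, searched as TGACTCA, or to the kappaB consensus. The kappaB consensus was searched as GGGRNNYYCC, where R is A or G, Y is C or T and N is any base. Matches to different motifs did not overlap in these windows. In windows of the same length 12.9% of all 33469 promoters held the TATA letters, 30.5% the GC box, 4.05% the AP-1 site and 6.33% the kappaB consensus. The Tnf window is chr20:3626435-3626684 (+ strand), and the Tnfsf15 window is chr5:82171659-82171908 (- strand).
Tnf: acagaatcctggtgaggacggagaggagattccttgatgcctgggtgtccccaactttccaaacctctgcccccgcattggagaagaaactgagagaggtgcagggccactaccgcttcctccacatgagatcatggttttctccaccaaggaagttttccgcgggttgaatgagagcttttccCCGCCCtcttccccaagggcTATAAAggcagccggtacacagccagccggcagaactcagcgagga
Tnfsf15: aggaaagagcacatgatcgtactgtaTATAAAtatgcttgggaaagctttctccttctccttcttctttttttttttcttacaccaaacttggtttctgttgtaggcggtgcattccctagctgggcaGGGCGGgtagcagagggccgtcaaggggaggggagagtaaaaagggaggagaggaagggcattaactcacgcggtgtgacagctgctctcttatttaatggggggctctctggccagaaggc
Counting the last base before the start as -1, the Tnf window held the TATA letters at -46 to -41 and the GC box on the minus strand at -66 to -61. That of Tnfsf15 held the TATA letters at -224 to -219 and the GC box at -122 to -117. Neither window held the AP-1 or kappaB letters. Bases outside the windows were not searched, so sites further from the start are not covered.

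Among the receptors, Tnfrsf1b, the TRAF-binding TNF receptor of immune cells, had the most unequal values. It was at 0.004 in control, -0.19 in CNT-1 and 2.61 in CNT-2. The CNT-1 column was thus the lowest and the CNT-2 column far above both. The difference from control was 2.61 in CNT-2 (6.09-fold), where 240 named genes were as high or higher, and -0.19 in CNT-1, where 68.1% of named genes were. The gap between the 2 exposures was 2.80, the largest of the 9 genes, and 150 of all named genes had a gap as large or larger. With quantile normalization the CNT-2 difference from control was 1.53. All of these values rest on 1 probe.

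Tnfrsf1a, the death-domain receptor for TNF that most cell types carry, was at -0.01 in control, 0.13 in CNT-1 and 0.66 in CNT-2. Its difference from control was 0.14 in CNT-1 and 0.67 in CNT-2 (1.59-fold), where 17.4% of named genes were as high or higher. In CNT-2 the difference of Tnfrsf1b therefore exceeded that of Tnfrsf1a by over 1 unit, while in CNT-1 both lay within 0.2 units of control.

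Cd40, the receptor through which T cells activate macrophages, was at 0.03 in control, 0.43 in CNT-1 and 1.37 in CNT-2 as the mean of its 2 probes. Both probes gave the same order of columns, with differences from control of 0.43 and 0.38 in CNT-1 and of 1.48 and 1.21 in CNT-2. The mean difference was 0.41 ± 0.04 in CNT-1 and 1.35 ± 0.19 in CNT-2 (SD, n = 2 probes), and the latter was 0.68 with quantile normalization. Its ligand gene Cd40lg, background-like in the control, was at -0.26 and -0.10.

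Fas, the death receptor for Fas ligand, was at -0.03 in control, 0.13 in CNT-1 and 0.05 in CNT-2. Its difference from control was 0.17 ± 0.03 in CNT-1 and 0.08 ± 0.003 in CNT-2 (SD, n = 2 probes), and 47.3% of all named genes were as high or higher in CNT-2. The 2 exposures differed by -0.09 ± 0.04, less than the median spread between probes. The CNT-2 difference changed sign with the scaling, to -0.24 with 75th percentile centring. The ligand gene Faslg, by contrast, was at 0.01 in control, 0.27 in CNT-1 and 2.72 in CNT-2, a CNT-2 difference of 2.71.

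The windows before the starts of Tnfrsf1b, chr5:162387412-162387661 (- strand), and Fas, chr1:241211905-241212154 (+ strand), are set beside each other because these receptors had the largest and the smallest CNT-2 difference among the 4.
Tnfrsf1b: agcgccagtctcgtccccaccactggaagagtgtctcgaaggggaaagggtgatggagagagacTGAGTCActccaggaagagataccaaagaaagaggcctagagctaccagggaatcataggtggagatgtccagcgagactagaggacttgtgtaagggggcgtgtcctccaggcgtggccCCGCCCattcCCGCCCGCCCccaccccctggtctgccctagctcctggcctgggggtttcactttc
Fas: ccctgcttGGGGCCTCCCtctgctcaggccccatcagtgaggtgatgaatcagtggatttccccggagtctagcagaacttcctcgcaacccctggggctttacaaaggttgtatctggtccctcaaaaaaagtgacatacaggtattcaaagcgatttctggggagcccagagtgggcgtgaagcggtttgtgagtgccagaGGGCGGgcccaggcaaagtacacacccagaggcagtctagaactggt
The Tnfrsf1b window held the AP-1 letters at -186 to -180 and 3 matches to the GC box, 2 of which share bases, between -66 and -47, all on the minus strand. Fas held the kappaB consensus at -242 to -233, readable on both strands, and the GC box at -47 to -42. A match describes the letters only.

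Traf2, the adaptor that links TNF receptors to the ubiquitin ligases, was at -0.005 in control, -0.01 in CNT-1 and -0.03 in CNT-2. No column differed from another by more than the median spread between probes. Its differences from control were -0.007 in CNT-1 and -0.02 in CNT-2, close to the medians of all named genes, and with 75th percentile centring the CNT-2 difference was -0.34.

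Birc3 encodes a ubiquitin ligase of the inhibitor-of-apoptosis family that is recruited through TRAF2. It was at 0.01 in control, 0.58 in CNT-1 and 3.25 in CNT-2. The CNT-2 column was the highest value of any of the 9 genes, and the CNT-1 column lay between it and the control. The difference from control was 0.57 in CNT-1 (1.48-fold), which 633 named genes reached or exceeded, and 3.24 in CNT-2 (9.42-fold), which 148 did. With quantile normalization these differences were 0.76 and 1.84.

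Birc2, the closely related ligase gene next to Birc3 in the RefSeq gene order, was at 0.01 in control, 0.76 in CNT-1 and 2.35 in CNT-2. RefSeq lists Birc2 among the older synonyms of Birc3, and both probes were assigned through their RefSeq accessions. Whether either probe also binds the other transcript was not tested. Xiap, another caspase inhibitor of the family, was at 0.20 in CNT-1 minus control and 0.23 in CNT-2 minus control.

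Set directly against CNT-1, 3 of the 9 genes were at least 1 unit higher in CNT-2, Tnf by 1.36, Tnfrsf1b by 2.80 and Birc3 by 2.67, and none was 1 unit lower. Over all named genes 9.32% were that much higher and 4.65% lower, shares that became 5.26% and 8.68% with 75th percentile centring and 5.75% and 7.82% with spike-in centring. The median difference was 0.94 for the 9 genes and 0.15 for all. Tnfsf15 was at 0.99, Cd40 at 0.94 ± 0.15 (SD, n = 2 probes), Tnfsf9 at 0.76 and Tnfrsf1a at 0.53. Under quantile normalization Tnfsf15 turned to -0.27 and Tnfsf9 to -0.20, and Tnf was at 0.11. Tnf was thus higher in CNT-2 than in CNT-1 under all 6 alternatives run for this comparison. Its 0.11 with quantile normalization was below the median spread between probes, 0.17. Tnfsf9 and Tnfsf15 were higher in CNT-2 under 5 of the 6, all except quantile normalization. The median over probes and leaving out background-like probes could not change these 3 ligands, which had 1 probe each, none background-like. Under quantile normalization Tnfrsf1b and Birc3 stayed above 1 unit, at 1.67 and 1.08.

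**Figure D3:**
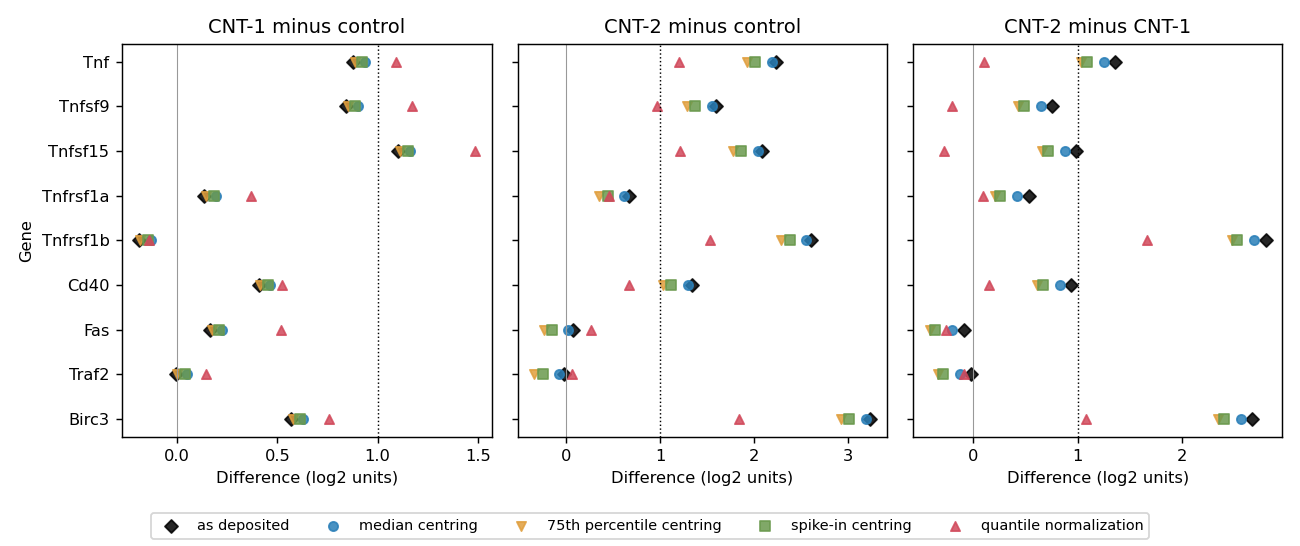
Difference (log2 units) of each of the 9 genes under 5 scalings of the columns, with each exposure set against control and CNT-2 set against CNT-1 in separate panels; the dotted line is at 1 unit and the grey line at 0. Quantile normalization (red triangles) brings the CNT-2 and CNT-1 values of the ligands together, whereas Tnfrsf1b and Birc3 stay past 1 unit in CNT-2 minus CNT-1.

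The wider pathway was followed in 100 further genes in 6 lists, 88 of them measured. In CNT-1 none of the 88 was at least 1 unit above control and 3, or 3.41%, were below, beside 1.16% and 2.15% of all named genes, with a median of -0.02. In CNT-2 16 were higher and 7 lower, with a median of 0.07. The share higher, 18.2%, stood beside 10.1% of all named genes, and the share lower, 7.95%, beside 6.56%, close to that background. The scalings moved several of the list counts below by more than 1.5 times, or to or from 0. Several medians moved by at least the median spread between probes. Many of these moves are given with each list.

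Of 13 other TNF superfamily ligands, 4 were at least 1 unit higher in CNT-2 than in control, or 30.8% beside 10.1% of all named genes. The 1 that was lower, or 7.69% beside 6.56%, was close to that background. The median was -0.07. Centring on the 75th percentile gave -0.38, and values without the control subtraction gave 0.09, a change of sign. The number higher was 2 with quantile normalization, where 5.42% of all named genes were, and 2 without background-like probes, where 11.0% were. Cd70, the ligand of the lymphocyte receptor Cd27, was at 2.82, Faslg at 2.71, Tnfsf12, which encodes TWEAK, at 1.83, and Tnfsf18, the ligand of Tnfrsf18, at 1.61. The control values of Cd70 and Tnfsf18 were background-like, so both differences may depend on the background level and have no firm size. Tnfsf10, which encodes the death ligand TRAIL, was the lower one at -1.45, and is named because of its value. In CNT-1 none of the 13 was higher, beside 1.16% of all named genes. Tnfsf4, the OX40 ligand, was lower at -1.07, which makes 7.69% of the list beside 2.15% of all named genes.

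Of 19 other receptors, 2 were higher and 2 lower in CNT-2, or 10.5% each way, near the 10.1% and 6.56% of all named genes. The number higher was 1 with 75th percentile or spike-in centring, where 6.22% and 7.15% of all named genes were. Both numbers were 0 with quantile normalization, where 5.42% of all named genes were higher and 3.42% lower. The median, 0.07, turned to -0.24 under 75th percentile centring and to -0.15 under spike-in centring. Tnfrsf12a, the receptor of Tnfsf12, was at 1.20 ± 0.06 (SD, n = 2 probes), and Tnfrsf26 at 1.41. Tnfrsf18, a costimulatory receptor, was at -1.61 and Relt at -1.07 ± 0.07 (SD, n = 2 probes). In CNT-1 none was higher, beside 1.16% of all named genes, and 2 were lower, or 10.5% beside 2.15%. These were Tnfrsf18 at -1.36 and Tnfrsf8, the neighbour of Tnfrsf1b in gene order, at -1.07.

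Of 20 other adaptors and kinases none was 1 unit higher in either exposure, beside 1.16% of all named genes in CNT-1 and 10.1% in CNT-2. In CNT-2 1 was lower, or 5.0% beside 6.56%, close to that background. It was Traf3ip2, an adaptor of interleukin-17 receptors, at -1.02 ± 0.35 (SD, n = 2 probes). The number lower was 2 with 75th percentile or spike-in centring, where 11.5% and 9.83% of all named genes were. It was 0 with quantile normalization, where 3.42% were. The medians of this list were 0.02 in CNT-1, or 0.21 with quantile normalization, and -0.03 in CNT-2, or 0.08 with quantile normalization and -0.35 with 75th percentile centring. Traf2 thus lay among adaptors with small differences, while Tank, a TRAF-binding regulator, was just inside the threshold at 0.99 in CNT-2.

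Of 18 other inhibitors and survival proteins, 8 were higher in CNT-2, or 44.4% beside 10.1% of all named genes. Only 1 was lower, or 5.56% beside 6.56%. The number higher was 4 with quantile normalization, where 5.42% of all named genes were, and 5 at a threshold of 1.5 units, where 4.84% were. The median, 0.44, was 0.12 under 75th percentile centring and 0.21 under spike-in centring. Cflar, which blocks caspase-8 activation at death receptors, was at 2.61, Birc2 at 2.33 and the BCL2 relative Bcl2a1 at 1.77. Tnfaip8 was the lower one at -2.43. In CNT-1 none passed 1 unit, beside 1.16% of all named genes higher and 2.15% lower, and the highest was Bcl2a1 at 0.92. With quantile normalization 1 was higher there, where 3.68% of all named genes were, and the CNT-1 median moved from 0.16 to 0.33.

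Among 10 death effectors none passed 1 unit in either exposure. Of all named genes 1.16% were higher and 2.15% lower in CNT-1, and 10.1% and 6.56% in CNT-2. The medians of the list were 0.07 in CNT-1, or 0.21 with quantile normalization, and 0.13 in CNT-2. The CNT-2 median changed sign with the scaling, to -0.18 under 75th percentile centring and -0.09 under spike-in centring. Casp8, the initiator caspase of death receptors, was at -0.41 in CNT-2 and Bid, which links it to mitochondria, at 0.89 ± 0.01 (SD, n = 2 probes).

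Of 8 genes of TNF release and mRNA control, 2 were higher and 2 lower in CNT-2. The number higher was 1 with 75th percentile, spike-in or quantile scaling, where 6.22%, 7.15% and 5.42% of all named genes were. The number lower was 0 with quantile normalization, where 3.42% of all named genes were. The median, 0.15, turned to -0.16 under 75th percentile centring and to -0.07 under spike-in centring. Litaf, a gene named for lipopolysaccharide-induced TNF, was at 1.93, and Rhbdf2, which brings the TNF-shedding protease to the cell surface, at 1.10 ± 0.19 (SD, n = 2 probes). Zfp36, whose protein destabilises Tnf mRNA, was at -2.04, and Rhbdf1 at -1.24. The protease gene itself, Adam17, was at 0.53. In CNT-1 none of the 8 passed 1 unit, beside 1.16% of all named genes higher and 2.15% lower, and Zfp36 was at 0.05. The CNT-1 median of the list, 0.10, was 0.48 with quantile normalization.

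**Figure D4:**
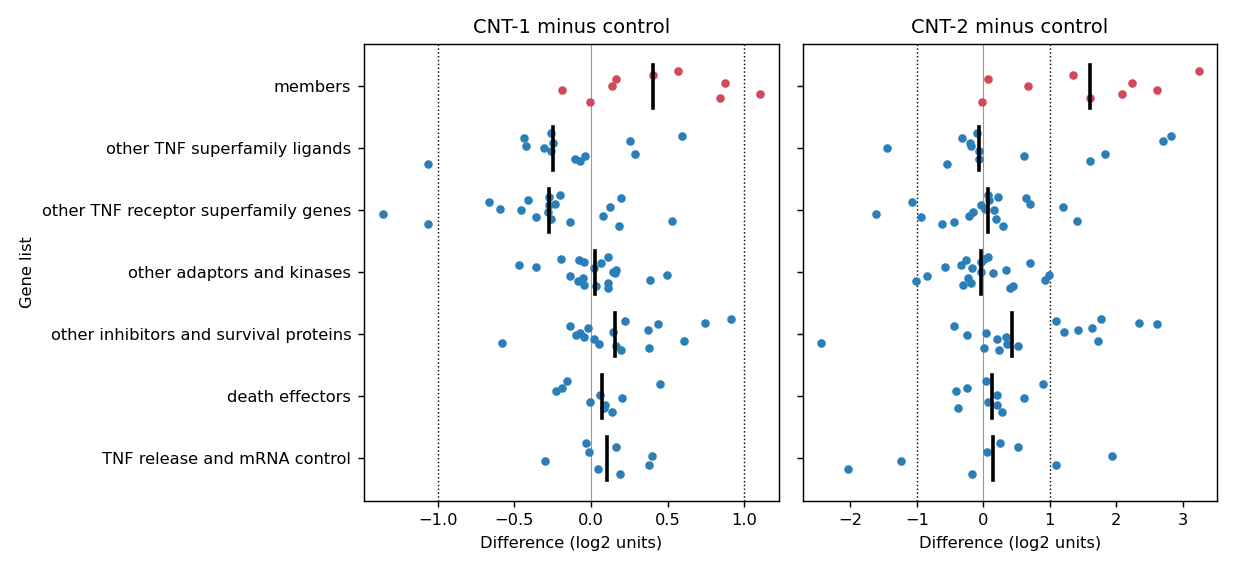
Difference (log2 units) of each measured gene of the 9 members (red) and of the 6 further pathway lists (blue), for CNT-1 minus control and CNT-2 minus control, with the median of each list as a black bar and dotted lines at 1 unit; vertical position within a list has no meaning. The CNT-2 medians are 1.60 for the 9 genes and 0.44 for other inhibitors and survival proteins, and no death effector passes 1 unit.

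The 10 spike-in probes were 0.23 ± 0.10 (SD over probes) above control in the CNT-2 column, and control probes named DCP were 0.22 ± 0.08 above it (11 probes numbered 0 to 5) or at -0.18 ± 0.26 (7 probes numbered 6 or more, SD over probes). The part of these shifts in the differences above was not tested. Of 15 measured macrophage markers 2 were higher and 2 lower in CNT-2, or 13.3% each way, and of 27 markers of other cell types 2 were higher and 4 lower, or 7.41% and 14.8%, beside 10.1% and 6.56% of all named genes. The part of the markers in the differences was likewise not tested. In the control 0 of the 15 macrophage markers and 4 of the 27 other markers were background-like, beside 2209 of all 15924 named genes. The centred values hold no expression levels, so the cell type could not be checked. The 10 reference genes lay between -0.47 and 0.91 in CNT-2 minus control, with a median of 0.15.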

How the data were processed

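NR8383 RNA from 3 groups, 1 sample each, was labelled with Cy3 and hybridised to Agilent arrays, per the labels' protocols. The submitters' processing notes name Agilent Feature Extraction 10.7.3.1. The deposited values of 41103 probes were taken as log2 units, presumed from their range of -5.71 to 8.82; for the normalization, the baseline and the number of arrays behind a column, nothing is stated in the sources used here. Depth does not apply to arrays, and their number limits the precision.

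A single gene symbol was listed for 20932 probes, several for 0 and none for 20171. Names were updated through the RefSeq table of assembly GRCr8 (17415 probes by accession, 3113 by current symbol, 396 by older symbol, 8 kept). A gene's difference was the mean over its probes of 1 column minus another, and a gene was counted as higher or lower at 1 unit or more. Low values were not filtered. The script was tested on simulated data. Python 3.11.15, numpy 2.4.6, pandas 2.3.3 and matplotlib 3.10.9 were used.

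All 10 members are named; of the other lists, at most the 4 genes furthest from 0 past 1 unit per list and comparison, with others only as partners, neighbours, contrasts or list extremes, picked after their values were seen. Members and lists were chosen with earlier results of these data known. Alternatives were 4 scalings of the columns, the median over probes, leaving out background-like probes, no subtraction of the control, and 2 other thresholds.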

Additional observations from a re-analysis of the deposited data

Results flagged for a closer look

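Tnfrsf1b drew attention because its differences from control had opposite signs, at -0.19 in CNT-1 and 2.61 in CNT-2. The CNT-1 value was small, with 68.1% of all named genes as high or higher, so it does not establish a decrease there. With 1 probe and 1 sample per group, the contrast between the exposures was not tested.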

How the results depend on the processing

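No member was 1 unit lower in any comparison under any alternative that was run. The median over probes and leaving out background-like probes could not change any member value. No member had more than 2 probes, and none of their probes was background-like. The number at least 1 unit higher in CNT-2 than in control, 6 of 9, was the same under all alternatives except quantile normalization, which gave 4, without Tnfsf9 and Cd40, beside 5.42% of all named genes, and a threshold of 1.5 units, which gave 5 beside 4.84%. The median of the members there, 1.60, was 1.29 with 75th percentile centring, 1.38 with spike-in centring and 0.97 with quantile normalization. In CNT-1 minus control the number higher, 1, was 3 with quantile normalization (3.68% of all named genes), 0 at a threshold of 1.5 units (0.327%) and 3 at a threshold of 0.693 (2.73%), the size of a 2-fold change if the values are natural logs; the median, 0.41, was 0.52 with quantile normalization. In CNT-2 minus CNT-1 the number higher, 3, was 2 with quantile normalization (2.74%) and at 1.5 units (4.08%), both without Tnf, and 6 at the threshold of 0.693 (16.3%), and the median, 0.94, was 0.62 with 75th percentile centring, 0.67 with spike-in centring and 0.10 with quantile normalization. Apart from the thresholds, which count by another size, the cause of these shifts was not tested. Median differences over all named genes in CNT-2 minus control moved from 0.04 to -0.27 with 75th percentile and to -0.18 with spike-in centring. In CNT-1 minus control, quantile normalization put 3.72% of all named genes 1 unit lower. For the other lists, 342 values kept within the limits set for them and 90 moved.

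An alternative that needed an expression level was not run, because the centred values hold none. No paired analysis was possible because each group had 1 sample. Leaving out replicates was not possible for the same reason. Signal over background is known here only through the control probes, so differences of background-like genes have no firm size.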
